A study of Mus musculus with 12 samples.

Results

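The S100 proteins are small calcium-binding proteins of the EF-hand type that work as dimers inside cells and, for some of them, as secreted alarm signals. Of the 55357 genes in the count table, 9 were taken by their symbol: S100a1, S100a4, S100a6, S100a8, S100a9, S100a10, S100a11, S100a13 and S100a16. Their RNA was followed in the livers of 12 male C57BL/6J mice, 13 weeks old after 6 weeks of diet. All mice carried floxed Ppara alleles (PPARafl/fl), and the KO mice also carried a Cre transgene under the Albumin promoter, which deletes PPARα in hepatocytes and leaves the other liver cells their copy. The groups were WT mice on chow (WT chow, n = 4), WT mice on CDAHFD (WT CDAHFD, n = 3), KO mice on chow (KO chow, n = 2) and KO mice fed CDAHFD (KO CDAHFD, n = 3). CDAHFD is a choline-deficient, amino acid-defined high-fat diet that gives a fatty, inflamed and fibrotic liver.

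Calcium binding opens a hydrophobic patch on an S100 dimer, through which it grips its partners. S100a10 differs in that it has lost calcium binding and holds its annexin partner, Anxa2, without it, while S100a11 and S100a6 bind annexins when calcium rises. S100a8 and S100a9 form calprotectin, a metal-binding complex that makes up much of the cytosolic protein of neutrophils and that is sensed by Tlr4 and by the receptor Ager when released. S100a1 is known best from striated muscle, where it tunes calcium release, and S100a13 takes part in the export of Fgf1 and Il1a, which lack a signal peptide. In the liver, S100 RNA comes from several cell types, among them hepatocytes, bile duct cells, stellate cells and leukocytes. In RNA of whole liver, a change in the number of cells of a type cannot be told apart from a change in RNA per cell.

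All 9 genes lie on chromosome 3 of GRCm38, in 2 blocks separated by 2.82 Mb. The first block runs from 90511034 to 90695721 (184.7 kb) and holds 13 protein-coding genes, among them S100a1, S100a13, S100a16, S100a4, S100a6, S100a8 and S100a9 in this order. The second block (44.2 kb, 93520488 to 93564643) holds S100a11 and S100a10. The 3 members at the start of the first block, S100a1, S100a13 and S100a16, were those not called higher in any of the 3 comparisons with WT chow after TMM scaling, while the members further along both blocks had higher levels there, apart from S100a4, which was too low to be tested. This is a description of 9 genes, with no test.

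The libraries held between 29906785 and 43551003 counts. Ppara, the targeted gene, ran from 96.2 to 237.8 CPM (counts scaled to library sizes that were adjusted by TMM) in WT chow and from 59.5 to 75.5 CPM in WT CDAHFD. It was at 14.4 and 38.7 CPM in KO chow and from 20.7 to 51.9 CPM in KO CDAHFD, below every WT library. Hepatocyte markers were abundant in each library. After TMM scaling, 8 of 11 tested were lower in KO chow than in WT chow (17.0% of all genes were), as were 11 of 11 in either CDAHFD group (25.0% and 25.4% of all genes). With library size alone 2, 8 and 8 were lower, where 1149 of all 17358 genes tested were lower in KO chow. The medians of the 11 were then log2 -0.38, -0.59 and -0.37, beside 0.40, 0.51 and 0.57 over all genes. Alb in KO chow was at log2 0.20 in place of -0.20 and was called in neither scaling. Libraries of a group also differed in clock phase. A score of clock genes (mean log2 CPM of 7 evening-phase genes minus that of 4 morning-phase genes) was negative in 2 WT chow libraries (-3.89 and -3.28) and positive in the other two (2.61 and 2.55). Likewise, it was positive in KO chow replicate 2 (0.717) and KO CDAHFD replicate 3 (3.48) and negative in the other libraries of these groups.

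Compared with WT chow, S100a6, S100a8, S100a9, S100a10 and S100a11 had higher RNA levels in each of the 3 other groups. A gene was called at an adjusted p under 0.05 in edgeR's quasi-likelihood test, with adjustment over all 17358 genes tested, and a log2 fold change is given with its standard error (SE). Of the 9 genes, 8 passed the filter on low counts. In KO chow, 5 of these 8 were higher, where 22.0% of all genes tested were higher, and none was lower, where 17.0% of all genes were. In WT CDAHFD, 5 were higher (26.1% of all genes) and 3 lower (25.0%). In KO CDAHFD, 5 were higher (26.9%) and 2 lower (25.4%). The median log2 fold change of the 8 genes was 1.78, 1.44 and 1.46 in these comparisons, beside 0.00, -0.05 and -0.04 over all genes tested. The 3 comparisons share the WT chow libraries, so their values are given side by side. With library size alone in place of TMM, the median of all genes moved to 0.40, 0.51 and 0.57, and the small changes of S100a1, S100a13 and S100a16 have to be read against that shift.

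**Figure D1:**
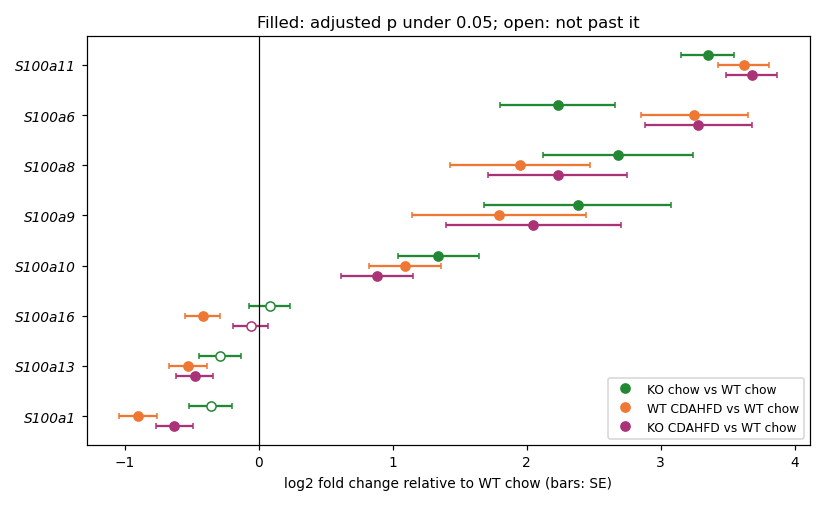
Log2 fold change (x axis, bars are SE) of the 8 tested S100 genes relative to WT chow, in the other 3 groups. Filled points passed an adjusted p of 0.05, and S100a11 lies farthest to the right, at 3.35, 3.62 and 3.68.

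S100a11 had the largest log2 fold change of the 8 genes in each comparison with WT chow, although without WT chow replicate 1 S100a8 (3.88) and S100a9 (3.97) passed it (3.60) in KO chow. It encodes an annexin-binding S100 protein of epithelial and other cells, known for its part in membrane repair and growth control. In WT chow it was measured at 5.90, 3.998, 3.23 and 3.03 CPM, and in WT CDAHFD at 52.5, 52.9 and 43.8 CPM. The KO chow libraries had 44.6 and 38.0 CPM and the KO CDAHFD libraries 49.8, 53.2 and 52.5 CPM. Every library of the other 3 groups thus stood far above all WT chow libraries, with no overlap. The level was 10.2-fold that of WT chow in KO chow (log2 3.35, SE 0.20, adjusted p = 1.67e-07 in edgeR's quasi-likelihood test). WT CDAHFD had 12.3-fold the level (log2 3.62, SE 0.19, adjusted p = 2.68e-08) and KO CDAHFD 12.8-fold (log2 3.68, SE 0.19, adjusted p = 2.58e-08). These calls held in each of the 12 fits that left out 1 library, and the log2 value in KO chow ran from 3.25 to 3.60 among them. A processed copy, S100a11-ps, is listed at 0 counts in the 12 libraries.

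The S100a11 promoter is shown because this gene moved the most, as the 300 bases from 250 before to 50 after its RefSeq start site (GRCm38.p6, chr3:93520246-93520545, plus strand). Capitals mark matches to the AP-1 letters TGANTCA, where N is any base.
S100a11: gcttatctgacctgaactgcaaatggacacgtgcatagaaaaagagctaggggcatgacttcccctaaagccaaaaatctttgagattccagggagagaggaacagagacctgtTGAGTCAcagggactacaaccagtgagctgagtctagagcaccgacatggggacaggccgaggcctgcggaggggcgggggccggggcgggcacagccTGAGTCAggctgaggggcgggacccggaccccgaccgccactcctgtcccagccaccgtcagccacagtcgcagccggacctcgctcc
Promoter windows of this kind were at hand for 8 of the 9 genes, 9 windows in all, and both strands were searched for 4 motifs. The AP-1 letters were found at 2 places in the S100a11 window, starting 136 and 38 bases before the start site, and once in the second window of S100a16. They occur in 7.81% of 32851 mouse promoter windows. No window of the group held the direct repeat that PPAR receptors bind, searched as 2 copies of AGGNCA with 1 base between, which occurs in 0.381% of all windows. Such a match describes letters in a window and says nothing of binding.

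S100a6, or calcyclin, is a small S100 protein of dividing epithelial and stromal cells that binds Cacybp and several annexins. The WT chow libraries had 3.03, 1.13, 0.700 and 1.24 CPM, the WT CDAHFD libraries 14.01, 17.8 and 11.4 CPM. In KO chow, replicate 1 had 10.1 CPM and replicate 2 had 4.12 CPM, and KO CDAHFD had 14.2, 15 and 14.8 CPM. The KO chow libraries stood between the WT chow libraries and those of both CDAHFD groups without overlapping either. KO chow had 4.68-fold the S100a6 level of WT chow (log2 2.23, SE 0.43, adjusted p = 0.00143 in edgeR's quasi-likelihood test). The fold was 9.52 with CDAHFD in WT mice (log2 3.25, SE 0.40, adjusted p = 2.51e-05) and 9.69 with CDAHFD in KO mice (log2 3.28, SE 0.40, adjusted p = 2.21e-05). Without WT chow replicate 1, the 3 differences were larger, at log2 2.81 (KO chow), 3.85 (WT CDAHFD) and 3.88 (KO CDAHFD). Without KO chow replicate 1, the KO chow difference was log2 1.46 with an adjusted p of 0.0485. KO chow is then a single library, which is assumed to vary like the other groups, and this holds wherever a KO chow library is left out. Between KO CDAHFD and KO chow the difference did not pass the threshold (log2 1.05, SE 0.45, adjusted p = 0.184), although the groups did not overlap.

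S100a10 holds Anxa2 at the plasma membrane, and the complex binds plasminogen and its activators. It was measured at 77.0, 110.7, 65.7 and 56.5 CPM in WT chow and at 144.7, 184.1 and 164.7 CPM in WT CDAHFD. KO chow replicate 1 had the highest level of the 12 libraries (250.5 CPM) and replicate 2 had 142.4 CPM, while KO CDAHFD had 150.5, 186.7 and 90.1 CPM. The KO CDAHFD libraries overlapped with WT chow, since KO CDAHFD replicate 3 lay below WT chow replicate 2. KO chow differed from WT chow by log2 1.34 (SE 0.30, adjusted p = 0.00339 in edgeR's quasi-likelihood test). For WT CDAHFD the difference was 1.09 (SE 0.27, adjusted p = 0.00487), and for KO CDAHFD 0.88 (SE 0.27, adjusted p = 0.0156). The KO chow call was lost without KO chow replicate 1 (log2 0.89, adjusted p = 0.084), and the KO CDAHFD call without KO CDAHFD replicate 2 (log2 0.64, adjusted p = 0.09).

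Levels were also set beside the clock score. In WT chow, the libraries with a negative score had 77.0 and 110.7 CPM and those with a positive score 65.7 and 56.5 CPM. In KO chow and KO CDAHFD the library with a positive score was likewise the lowest of its group. In a fit with the 4 group means and the clock score, a test added after the data were seen, S100a10 fell by 0.13 on the log2 scale per unit of the score (SE 0.03, adjusted p = 0.00942 in edgeR's quasi-likelihood test). It was the only one of the 8 genes called for this term, beside 8.42% of all genes, and the adjusted p of the others ran from 0.136 to 0.581. The slopes of S100a6 (-0.13, SE 0.05), S100a8 (-0.13, SE 0.08) and S100a9 (-0.23, SE 0.09) had adjusted p of 0.174, 0.318 and 0.136. With only the libraries of negative score, which is also a setting added after the data were seen, S100a10 remained higher than WT chow by log2 1.42 (KO chow), 0.81 (WT CDAHFD) and 0.84 (KO CDAHFD). The adjusted p in edgeR's quasi-likelihood test were 0.00165, 0.0049 and 0.00655. KO chow is then replicate 1 alone, the library with the highest S100a10, and is assumed to vary like the other groups.

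**Figure D2:**
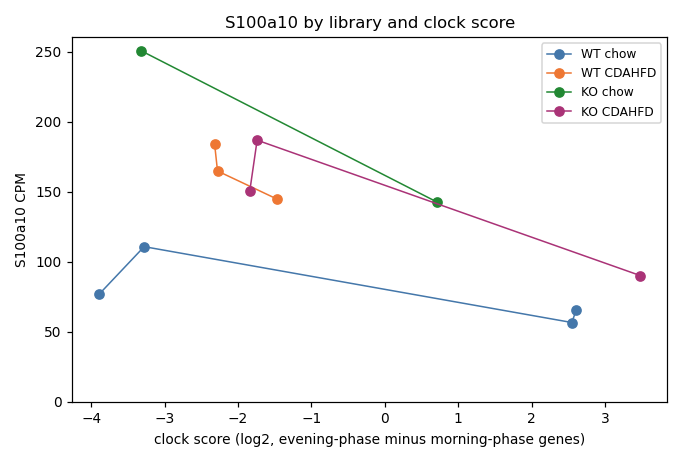
S100a10 CPM (y axis) against the clock score (x axis, log2 difference of evening-phase and morning-phase genes) in the 12 libraries, with lines joining libraries of a group. In the 3 groups with scores of both signs, the libraries of positive score have the lower S100a10, down to 90.1 CPM in KO CDAHFD replicate 3.

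S100a8 and S100a9, the subunits of calprotectin, were low in WT chow with the exception of 1 library. In WT chow replicate 1, S100a8 was at 2.76 CPM, and at 0.378, 0.467 and 0.504 CPM in replicates 2, 3 and 4. It was at 3.93, 4.16 and 3.71 CPM in WT CDAHFD, at 8.48 and 4.56 CPM in KO chow and at 4.49, 4.41 and 5.42 CPM in KO CDAHFD. The 8 libraries outside WT chow were thus all above the 4 of WT chow, and KO chow replicate 1 was the highest. S100a9 was at 4.97, 0.472, 0.767 and 0.367 CPM in WT chow, at 5.35, 6.17 and 5.46 CPM in WT CDAHFD, at 12.3 and 4.75 CPM in KO chow and at 7.64, 6.31 and 6.38 CPM in KO CDAHFD. For S100a9, WT chow replicate 1 lay above KO chow replicate 2, so these groups overlapped.

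The 2 genes lie on opposite strands near the end of the first block, and their promoter windows (GRCm38.p6) are shown because calprotectin needs both. The S100a8 window is chr3:90668821-90669120 on the plus strand and the S100a9 window chr3:90695672-90695971 on the minus strand, each read in the direction of the gene. Capitals mark matches to a C/EBP pattern (TTNNGNAA on either strand) and to the TATA box letters TATAAA.
S100a8: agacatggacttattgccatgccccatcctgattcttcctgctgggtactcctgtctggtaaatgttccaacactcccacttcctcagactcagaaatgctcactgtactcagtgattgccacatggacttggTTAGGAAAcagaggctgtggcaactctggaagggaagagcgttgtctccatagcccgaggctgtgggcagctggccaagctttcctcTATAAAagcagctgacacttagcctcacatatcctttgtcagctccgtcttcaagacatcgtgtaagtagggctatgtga
S100a9: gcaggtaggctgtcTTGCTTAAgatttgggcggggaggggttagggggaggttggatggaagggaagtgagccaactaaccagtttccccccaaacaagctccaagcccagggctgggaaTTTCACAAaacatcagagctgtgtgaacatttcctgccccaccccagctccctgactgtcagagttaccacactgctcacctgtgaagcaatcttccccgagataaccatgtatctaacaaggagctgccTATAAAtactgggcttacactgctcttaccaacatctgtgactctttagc
The TATA letters began 30 bases before the RefSeq start site of S100a8 and at the annotated start site of S100a9, and they occur in 13.6% of all windows. S100a4 was the other gene of the group with them, 31 bases before its start. The C/EBP pattern was found once for S100a8 and at 2 places for S100a9 but in none of the other windows of the group. It occurs in 40.7% of all windows, so its presence is common.

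In edgeR's quasi-likelihood test, S100a8 was higher than WT chow by log2 2.68 in KO chow (SE 0.56), 1.95 in WT CDAHFD (SE 0.52) and 2.23 in KO CDAHFD (SE 0.52), with adjusted p of 0.00228, 0.00738 and 0.00308. For S100a9 the differences, in the same order, were 2.38 (SE 0.70), 1.79 (SE 0.65) and 2.05 (SE 0.65), with adjusted p of 0.0172, 0.035 and 0.0184. WT chow replicate 1 decided much of their size. Without it, S100a8 was higher by log2 3.88, 3.16 and 3.45 and S100a9 by 3.97, 3.39 and 3.66, with adjusted p from 1.31e-06 to 1.35e-05. The S100a9 call in KO chow was lost without KO chow replicate 1 (log2 1.55, adjusted p = 0.226) and when only KO chow and WT chow were fitted (log2 2.39, SE 0.90, adjusted p = 0.0779). In WT CDAHFD the S100a9 call was lost in 6 of the 12 fits without 1 library, with an adjusted p of up to 0.0863. With only the libraries of negative clock score, in which WT chow replicate 1 is 1 of 2 WT chow libraries, the S100a8 calls in WT CDAHFD (adjusted p = 0.0599 in edgeR's quasi-likelihood test) and KO CDAHFD (adjusted p = 0.0541) were lost, as were the 3 S100a9 calls (0.0501, 0.168 and 0.116 in the order above). S100a8 remained called in KO chow (adjusted p = 0.0176), which is replicate 1 alone in this setting, the library with the highest S100a8.

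Since S100a8 and S100a9 mark neutrophils, 20 other neutrophil genes were set beside them. Their summed level was 9.74 CPM in WT chow replicate 1 and 3.31, 4.54 and 3.17 CPM in the other WT chow libraries. It ran from 22.5 to 27.5 CPM in WT CDAHFD, was 21.02 and 17.4 CPM in KO chow and ran from 19.5 to 23.5 CPM in KO CDAHFD. WT chow replicate 1 was thus the highest of its group for this list as well, and the groups did not overlap with WT chow. Of the 20 genes, 14 were tested, of which 10 (KO chow), 11 (WT CDAHFD) and 13 (KO CDAHFD) were higher than in WT chow and none lower, beside the shares of all genes given above (22.0%, 26.1% and 26.9% higher). Of the 14, 7 had at most 3 counts in every WT chow library and so could only be called higher, which makes these numbers a description, and no median fold change is given. The defining markers were near the limit of detection: Ly6g, the surface marker of mature mouse neutrophils, had 0 to 3 counts per library, and Mpo, a granule enzyme, had 0 in WT chow and 0 to 23 in the other groups. Csf3r, the receptor for the growth factor of neutrophils, which monocytes carry as well, was the most abundant of the list, with 51 to 141 counts in WT chow and 355 to 826 in the other groups. Elane had 0 to 11 counts, Camp 0 to 14 and Ngp 0 to 23. Retnlg reached 0 to 17 counts in WT chow and 23 to 39 in the others, and Cxcr2 2 to 20 and 43 to 80.

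S100a9 stood in a ratio of 0.727 to 1.80 to S100a8 in the 12 libraries. Relative to the neutrophil sum, S100a8 amounted to 40.4% and 26.1% in KO chow, 19.8% to 23.1% in KO CDAHFD and 14.3% to 16.5% in WT CDAHFD. In WT chow it amounted to 28.3% in replicate 1 and 10.3% to 15.9% in the others, so the ratio differed among libraries of a group as well. Csf3r alone made up 45.9% to 73.9% of that sum in the 12 libraries. How much of the S100a8 and S100a9 differences moved with the number of neutrophils was not tested.

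**Figure D3:**
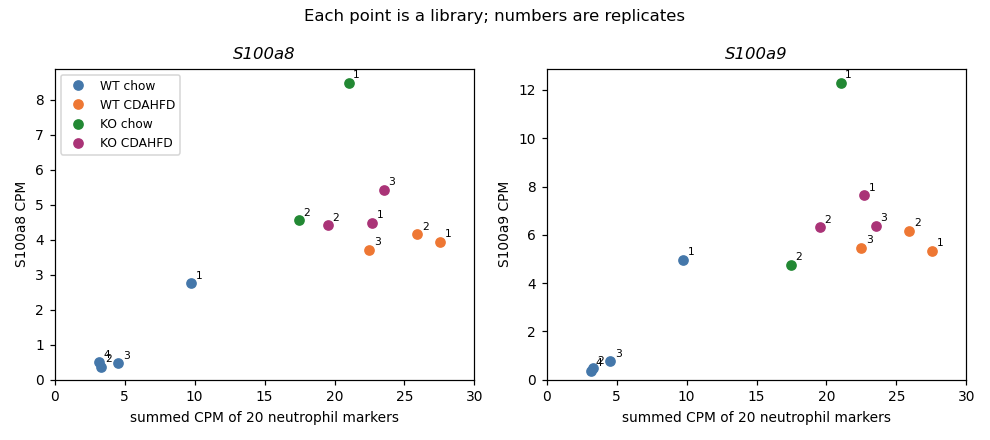
S100a8 (left) and S100a9 (right) CPM against the summed CPM of 20 neutrophil genes, 1 point per library, with the replicate number beside it. WT chow replicates 2 to 4 sit together near 0, WT chow replicate 1 lies apart at a sum of 9.74 CPM, and KO chow replicate 1 has the highest S100a8 and S100a9.

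S100a4, a fibroblast and macrophage S100 protein that binds the myosin Myh9, was hardly detected. It had 0 counts in each of the 4 WT chow libraries, 9, 9 and 4 in WT CDAHFD, 1 and 1 in KO chow and 9, 5 and 6 in KO CDAHFD. No count in 4 libraries allows up to 3 counts over the group, or 0.0274 CPM, beside 0.0874 to 0.218 CPM in the libraries of the CDAHFD groups, and this limit covers counting error only. With 44 counts in all, S100a4 did not pass the filter. With no count in WT chow it could only be called higher, so no test of it is given. Of its 584 exon bases, 302 overlap a gene on the same strand, Gm42674, which had 0 counts, and whether reads in this overlap were counted is not given in the sources used here.

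S100a1, S100a13 and S100a16 were each called lower than WT chow in at least 1 CDAHFD group, and none of them was called in KO chow after TMM scaling. S100a1 had 82.6, 107.3, 86.0 and 89.3 CPM in WT chow and 50.7, 43.3 and 52.8 CPM in WT CDAHFD. KO chow had 75.2 and 67.5 CPM and KO CDAHFD 55.0, 72.5 and 50.05 CPM. Every WT chow library was above the libraries of the other groups. The decrease was called for WT CDAHFD (log2 -0.90, SE 0.14, adjusted p = 0.000194 in edgeR's quasi-likelihood test) and, with -0.63 (SE 0.14, adjusted p = 0.00247), for KO CDAHFD. KO chow was at -0.36 (SE 0.16, adjusted p = 0.0982). With library size alone, S100a1 was at -0.34 in WT CDAHFD (adjusted p = 0.0321). It was then at 0.05 in KO chow and at -0.02 in KO CDAHFD, and neither was called.

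S100a13 ran from 16.8 to 22.9 CPM in WT chow (median 18.7), with 13.9, 12.6 and 13.6 CPM in WT CDAHFD, 17.4 and 14.2 CPM in KO chow and 12.4, 16.4 and 12.8 CPM in KO CDAHFD. CDAHFD livers had less of it, by log2 -0.53 (SE 0.14, adjusted p = 0.00704) in WT mice and -0.48 (SE 0.14, adjusted p = 0.0124) in KO mice against WT chow, and KO chow was at -0.29 (adjusted p = 0.173). S100a16, an S100 protein found in many tissues, was lower in WT CDAHFD only, where its libraries had 20.8, 19.7 and 19.99 CPM against 24.3, 30.4, 27.7 and 25.1 CPM in WT chow (log2 -0.42, SE 0.13, adjusted p = 0.0178). It was at 31.7 and 25.2 CPM in KO chow (log2 0.08, adjusted p = 0.687) and at 23.3, 30.7 and 23.2 CPM in KO CDAHFD (log2 -0.06, adjusted p = 0.705). The directions of both genes depended on the scaling. With library size alone, S100a13 was at 0.03 and 0.13 and S100a16 at 0.14 and 0.54 in WT CDAHFD and KO CDAHFD, and S100a16 was then called higher in KO CDAHFD (adjusted p = 0.0022) and in KO chow (log2 0.49, adjusted p = 0.0119). In the fits without 1 library, the S100a13 call in KO CDAHFD was lost in 2 of 12, without KO CDAHFD replicate 1 (adjusted p = 0.0626) and without KO CDAHFD replicate 3 (adjusted p = 0.0509). The S100a16 call in WT CDAHFD was lost in 3 of 12, without WT chow replicate 2 or without replicates 2 or 3 of WT CDAHFD, where the adjusted p were 0.0542, 0.0602 and 0.0531.

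S100a1 and S100a13 are divergent neighbours whose RefSeq start sites lie 105 bases apart, so that their promoter windows share 204 of 300 bases. The S100a13 window is shown for this reason (GRCm38.p6, chr3:90514185-90514484, plus strand), with the 104 bases between the start sites in capitals. S100a1 is read to the left of the capitals and S100a13 to the right.
S100a13: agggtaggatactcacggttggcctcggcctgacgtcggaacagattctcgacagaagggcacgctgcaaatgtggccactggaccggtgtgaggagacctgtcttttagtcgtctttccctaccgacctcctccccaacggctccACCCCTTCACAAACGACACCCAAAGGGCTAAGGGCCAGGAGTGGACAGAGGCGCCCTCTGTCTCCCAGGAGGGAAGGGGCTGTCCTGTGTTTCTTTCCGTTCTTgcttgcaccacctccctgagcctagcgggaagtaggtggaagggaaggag
The libraries do not keep the strand of a read. The RefSeq record of S100a13 begins at 90514233, before the start site shown, and so overlaps S100a1, which ends at 90514330 there, by 98 bases, while in GENCODE S100a1 ends at 90514392 and S100a13 begins at 90514435, with no overlap. The gene models used for counting are not given in the sources used here. Over the 12 libraries, S100a1 and S100a13 had a Pearson r of 0.94 in log2 CPM, and of 0.89 in the deviations from the group means. S100a13 and S100a16 had 0.75 and 0.97.

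**Figure D4:**
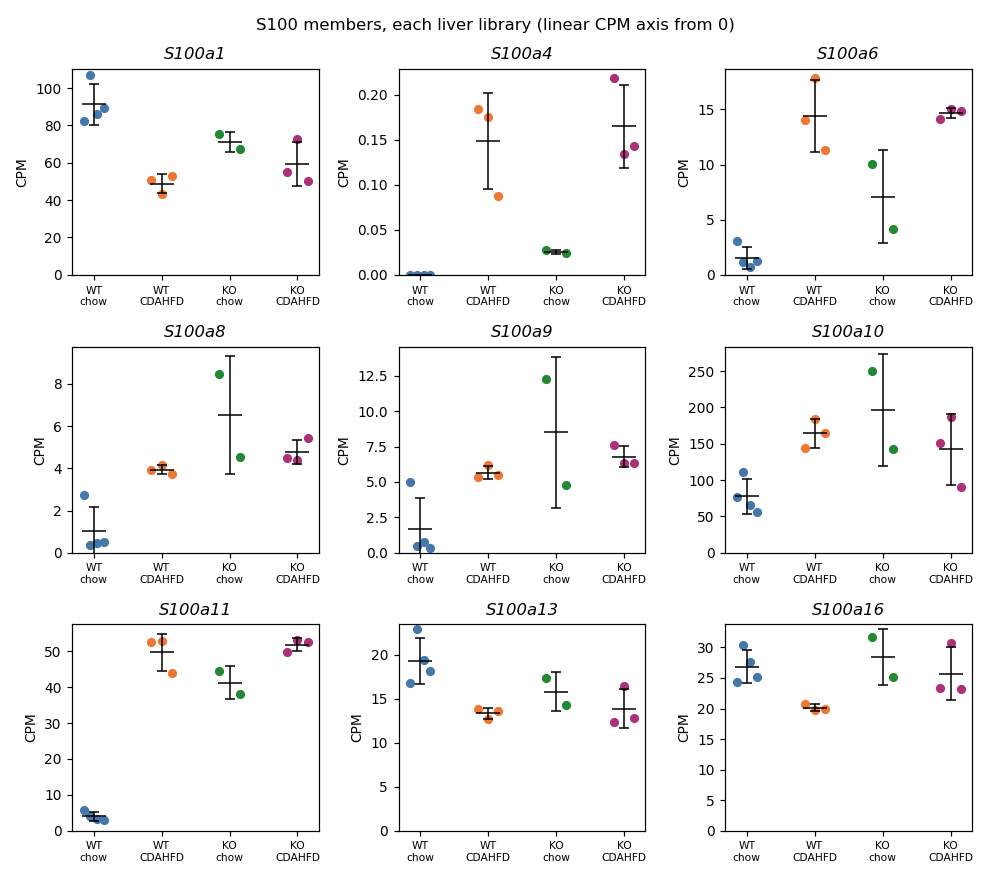
CPM (y axis, linear from 0) of the 9 S100 genes in each library, by group, with the group mean and SD as black bars, which are cut at 0. S100a11 shows the widest gap between WT chow (3.03 to 5.90 CPM) and the other groups (37.98 to 53.2 CPM), and the S100a4 axis ends near 0.2 CPM.

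Levels of different genes were compared as CPM per kb of exon. In WT chow, S100a1 was the most abundant of the 9 with 131.6 CPM per kb (SD 15.9, n = 4), or 52.1% of their sum, followed by S100a10 with 63.9 (SD 19.5) and S100a13 with 27.0 (SD 3.65). In the other groups S100a10 ranked first, at 135.7 CPM per kb (SD 16.2, n = 3) in WT CDAHFD, 162.1 (SD 63.1, n = 2) in KO chow and 117.5 (SD 40.3, n = 3) in KO CDAHFD. S100a11 ranked 5 in WT chow (7.91, SD 2.56), 2 in both CDAHFD groups (97.4, SD 10.04 and 101.3, SD 3.52) and 3 in KO chow (80.8, SD 9.20). In KO CDAHFD the levels of S100a10, S100a11 and S100a1 (85.3, SD 17.0) lay within their spread of each other. The share of S100a11 in the summed level was 3.13% in WT chow but 26.9% (WT CDAHFD), 19.4% (KO chow) and 27.4% (KO CDAHFD) in the other groups, and that of S100a1 fell to 19.5%, 24.7% and 23.0%.

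The response to the diet was then compared between genotypes. In WT mice the diet effect was the WT CDAHFD difference given above. In KO mice, KO CDAHFD and KO chow differed by log2 1.05 for S100a6, 0.33 for S100a11, -0.45 for S100a8, -0.33 for S100a9 and -0.46 for S100a10, and by -0.27, -0.19 and -0.15 for S100a1, S100a13 and S100a16. None of the 8 passed the threshold in edgeR's quasi-likelihood test (6.19% of all genes did). An unadjusted p under 0.05 was found for 1, S100a6, and how many of all genes had such a p was not counted. DESeq2 called 0 of the 8, beside 1885 of all genes. The difference between the diet effects, KO minus WT, was called for 4 of the 8, all lower, beside 14.5% of all genes. These were S100a11 (log2 -3.29, SE 0.27, adjusted p = 7.2e-06), S100a6 (-2.20, SE 0.58, adjusted p = 0.0164), S100a10 (-1.55, SE 0.42, adjusted p = 0.0179) and S100a8 (-2.40, SE 0.76, adjusted p = 0.0381). The values of S100a9 (-2.12, SE 0.97, adjusted p = 0.139), S100a1 (0.63, adjusted p = 0.0557), S100a13 (0.34) and S100a16 (0.27) did not pass. Without KO chow replicate 1, S100a11 was the only one of the 4 still called, with adjusted p of 0.141, 0.122 and 0.18 for S100a6, S100a10 and S100a8, in a fit where KO chow is 1 library. Without WT chow replicate 1, the difference grew to -3.58 for S100a8 (adjusted p = 3.92e-05) and to -3.70 for S100a9, which was then called (adjusted p = 0.000193). The S100a8 call was lost in 9 of the other 10 fits without 1 library. S100a1 was called without WT chow replicate 1 (0.67, adjusted p = 0.0383) and without KO CDAHFD replicate 3 (0.74, adjusted p = 0.0266). With a term for the replicate number, the S100a8 call was lost (adjusted p = 0.0543).

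**Figure D5:**
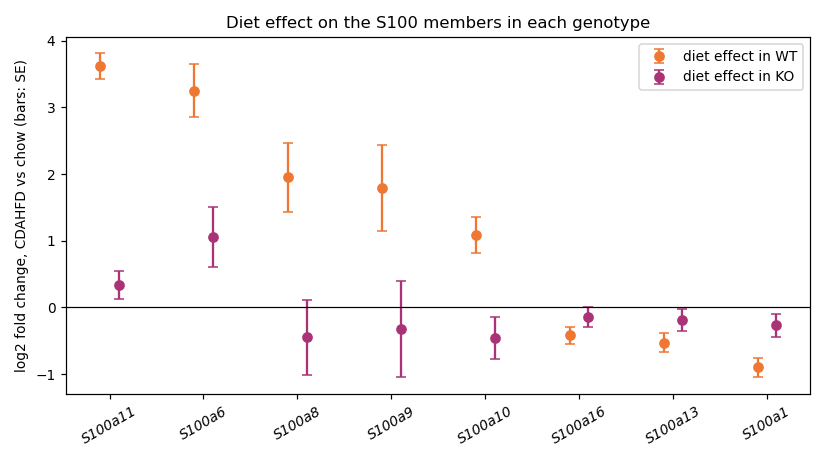
Log2 fold change of CDAHFD against chow (y axis, bars are SE) in WT and in KO mice for the 8 tested S100 genes. S100a11 is at 3.62 in WT mice and at 0.33 in KO mice, and the KO values of the other genes lie between -0.46 and 1.05.

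The 3 groups outside WT chow were also compared with each other. Between KO CDAHFD and WT CDAHFD, none of the 8 genes was called, beside 0.357% of all genes, and the log2 values ran from -0.21 for S100a10 to 0.35 for S100a16, which had the only unadjusted p under 0.05 (0.0251). DESeq2 called 0 as well. Between KO chow and WT CDAHFD, none was called either, beside 6.12% of all genes. Here, in edgeR's quasi-likelihood test, S100a1 was at 0.54 (adjusted p = 0.0705), S100a16 at 0.50 (adjusted p = 0.0737) and S100a6 at -1.02 (adjusted p = 0.185). These 3 genes had an unadjusted p under 0.05, and how many of all genes had such a p was not counted in either comparison. DESeq2 called S100a1 and S100a16 higher in KO chow, with adjusted p of 0.0371 and 0.0449, beside 2062 of all genes called, 866 of them higher. All KO chow libraries lay below those of WT CDAHFD for S100a6 and above them for S100a1, S100a8, S100a13 and S100a16. How many of all genes separate in this way was not counted.

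Across the 12 libraries the members fell into patterns that are described here with no test, since the libraries share 4 groups. S100a8 and S100a9 had an r of 0.98 (0.95 in deviations from the group means), S100a6 and S100a11 0.95 (0.83) and S100a8 and S100a11 0.91 (0.84). S100a10 differed from these in its deviations, at 0.04 to 0.34 with S100a6, S100a8, S100a9 and S100a11 and at 0.67 to 0.74 with S100a1, S100a13 and S100a16, while its r with S100a1 over all libraries was -0.45. Among the 17358 genes tested, those most like S100a11 were Cd63, a tetraspanin of lysosomes and exosomes (r = 0.998), Tagln2, an actin-binding protein (0.998), and Il1rn, the interleukin-1 receptor antagonist (0.997). For S100a6 they were Gpx3, Plekha4 and Cd200 (0.993 to 0.989), and for S100a10 Pdlim1, Aldh1a7 and Gbp3 (0.968 to 0.954). S100a8 was most like Slc7a7 (0.982), S100a9 (0.981) and Tnfaip6 (0.980), and S100a9 most like S100a8, Slc7a7 and Cenpn (0.981 to 0.977). S100a1 was closest to Mrpl30, Atp5h and Ndufs3 (0.992 to 0.989), which encode parts of the mitochondrial ribosome, the ATP synthase and complex I. S100a13 was closest to Cox6c, Atp5j2 and Adh1 (0.966 to 0.958), and S100a16 to Asnsd1, Rpl22 and Rpl17 (0.967 to 0.947).

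Of 30 partners and receptors of S100 proteins, 18 were higher and 4 lower in KO chow than in WT chow, 17 and 3 in WT CDAHFD and 18 and 3 in KO CDAHFD. These counts were, with library size alone, 26 and 2, 25 and 2, and 26 and 2, with medians of log2 1.20, 1.09 and 1.36 beside 0.40, 0.51 and 0.57 over all genes. In that scaling 7037 of the 17358 genes tested were higher and 1149 lower in KO chow. With TMM, over all genes tested, 22.0% and 17.0%, 26.1% and 25.0%, and 26.9% and 25.4% were higher and lower. The medians of the 30 were log2 0.81, 0.54 and 0.76, beside 0.00, -0.05 and -0.04 over all genes. Anxa2, the partner of S100a10, ran from 6.93 to 14.1 CPM in WT chow and from 173.4 to 263.1 CPM in the other groups, without overlap. Its log2 fold changes were 4.17, 4.46 and 4.37 (each SE 0.21, adjusted p at most 7.34e-08 in edgeR's quasi-likelihood test), beside 1.34, 1.09 and 0.88 for S100a10. Ahnak, a giant scaffold protein held by that complex, was higher by log2 1.06, 1.998 and 2.02 with adjusted p of 0.000699, 1.02e-06 and 8.98e-07. Anxa1, a partner of S100a11, was higher by log2 2.16, 3.97 and 3.86 (adjusted p at most 3.17e-05), with 18.8 and 13.8 CPM in KO chow and 45.7 to 65.3 CPM in the CDAHFD groups. Of the partners of S100a6, Anxa5 was higher by 2.49, 2.66 and 2.60 (adjusted p at most 8.65e-08) and Anxa11 was at -0.48, -0.29 and -0.27 (adjusted p at most 0.0312). The Anxa11 direction turned with the scaling, since with library size alone it was at -0.07 in KO chow, not called, and at 0.28 and 0.35 in the CDAHFD groups, called higher (adjusted p = 0.0158 and 0.00429). Cacybp was at 0.24, -0.31 and -0.32 and was not called, and its CDAHFD values were 0.25 and 0.28 with library size alone. Myh9, a partner of S100a4, was higher by 1.04, 1.24 and 1.04 (adjusted p at most 0.000508).

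Among the receptors of calprotectin, Tlr4 was higher by log2 1.29, 1.84 and 1.54 in the same order of groups (adjusted p at most 0.000191). Its co-receptor Cd14 was higher by 2.48, 3.80 and 3.24 (adjusted p at most 2.35e-05), from 2.23 to 4.46 CPM in WT chow to 12.1 to 48.4 CPM in the other groups. Ly96 was at 0.55, 0.52 and 0.52 with adjusted p of 0.0887, 0.0606 and 0.0565, and Bsg at -0.06, -0.19 and -0.09 was not called. Ager was low, at 0.138 to 0.880 CPM in all libraries, and was called only in KO CDAHFD (log2 1.29, adjusted p = 0.0114). Of the cargo released with S100a13, Fgf1 fell from 126.1 to 147.1 CPM in WT chow to 23.2 to 32.6 CPM in the other groups (log2 -2.38, -2.14 and -2.14, adjusted p at most 1.05e-07), and Il1a was called only in KO chow (log2 0.66, adjusted p = 0.0145). With library size alone, Ly96, Bsg, Ager and Il1a were each called higher in all 3 comparisons (adjusted p at most 0.0418 in edgeR's quasi-likelihood test). The median of all genes was then log2 0.40, 0.51 and 0.57, and in KO chow 7037 of the 17358 genes tested were called higher. These 4 calls thus depend on the scaling.

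Marker lists of other cell types were set beside the S100 genes. Their counts of called genes with TMM are read against the shares of all genes given above, 22.0% to 26.9% higher and 17.0% to 25.4% lower. Counts with library size alone have another background: in KO chow, 7037 of the 17358 genes tested were then higher and 1149 lower. The median of all genes was then log2 0.40, 0.51 and 0.57 in the 3 comparisons with WT chow. Of 16 monocyte and macrophage genes, 13 were higher in KO chow and 11 in either CDAHFD group, where 1 was lower, and their summed level ran from 462.4 to 733.4 CPM in WT chow and from 1333 to 2199 CPM in the other groups. Of 8 genes of lipid-associated macrophages, 7 were higher in KO chow and 8 in either CDAHFD group. One of them, Gpnmb, had 2 to 10 counts in WT chow against 2779 to 40991 elsewhere and so could hardly have been called lower, which also holds for cholangiocyte genes such as Cftr and Cldn4, for Timp1 of the stellate cell list and for Cd8a of the T and NK cell list, each with at most 10 counts in every WT chow library. The lipid-associated macrophage sum was 270.9 to 355.3 CPM in WT chow, 824.4 and 984.9 CPM in KO chow and 1990 to 2640 CPM in the CDAHFD groups, with KO chow in between, as for S100a6. Of 14 stellate cell and fibroblast genes, 10, 10 and 12 were higher, and the sum was 254.5 to 382.8 CPM in WT chow and 1459 to 2595 CPM in the others. Of 10 cholangiocyte genes, 7, 9 and 9 were higher and 1 was lower in KO chow, with sums of 41.2 to 60.2 CPM in WT chow, 61.1 and 68.6 CPM in KO chow and 96.9 to 168.3 CPM in the CDAHFD groups. Of 12 T and NK cell genes 8, 7 and 6 were higher and 1 lower each time (9, 10 and 10 higher and 0, 1 and 1 lower with library size alone), and of 10 endothelial genes 1, 0 and 0, with 0, 3 and 3 lower. The endothelial counts lie near or below the share of all genes. With library size alone 2, 2 and 3 were higher and none lower, with medians of log2 0.43, 0.15 and 0.37. In KO chow, 2 of 10 higher is below the share of all genes in that scaling. None of 5 B cell genes was called with TMM. With library size alone 2, 1 and 1 were higher, and 2 of 5 in KO chow is near the share of all genes in that scaling. WT chow replicate 1 had the highest B cell sum of the 12 libraries (24.9 CPM). The part of any cell type in the S100 levels was not tested.

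Another 8 S100 genes are in the table, and none of them reached a mean of 1 CPM in a group. Those named here were chosen after their values were seen. S100a2 and S100a5, which lie in the first block between members of the group, are listed at 0 in all libraries. Of the 2 that passed the filter, S100g, a vitamin D-induced calcium carrier of the gut, had 1, 0, 0 and 0 counts in WT chow and 6 to 46 in the other libraries. S100a14 had 0 to 3 counts in WT chow and 0 to 18 elsewhere. Both passed the filter only through the other groups, so their calls are not given. The other 6 had 8 counts or fewer in each library.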

How the data were processed

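Liver RNA was poly-A selected and sequenced in non-directional libraries. The deposited values are counts of reads per Ensembl gene, not normalized. According to the labels and the study's methods, the authors used FastQC 0.11.5 and STAR 2.7.3a on GRCm38, and DESeq2 for their own comparisons. The counting program and annotation release are not given in the sources used here. Groups and replicate numbers came from the sample titles, and the 12 libraries were treated as 12 mice, since no label ties any to a shared animal, and p-values measure the spread between them. The methods state another number of mice per group than the labels, and the histology table gives other numbers of KO mice, so the labels were used. KO chow replicate 2 carries the number 3 in its own label. Total counts ran from 29906785 to 43551003, and the limit for a count of 0 was set at 3 counts over a group.

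Symbols and positions were taken from GENCODE M21 (52081 identifiers matched, 94.08%, holding 99.691% of the counts) and promoters from RefSeq (GRCm38.p6). In R 4.3.3 with edgeR 4.0.16, filterByExpr kept 17358 genes, libraries were scaled with TMM, and quasi-likelihood fits over the 12 libraries had 4 group means (glmQLFit, glmQLFTest), with Benjamini-Hochberg adjustment and a threshold of 0.05. The SE is the log2 fold change divided by the square root of F. Log2 CPM used a prior count of 2. Alternatives were DESeq2 1.42.0, library size alone, RLE scaling, every gene with a count, each library left out, a replicate block, the compared groups only, the clock score as covariate, and, added after the data were seen, libraries of negative clock score only. The fit was tested on simulated data with 17358 genes, of which 100 were changed at each size, up and down alike. It recovered 50% of genes changed by log2 1 and 74% of those changed by log2 2 in KO chow, 64% and 82% in WT CDAHFD, and 55% and 83% in KO CDAHFD. Far fewer genes were changed than were called against WT chow in the data, so the simulation does not cover the effect of the scaling. All 9 genes were named with every library, then other S100 genes of at least 1 CPM in a group (none, so those named were chosen after their values were seen), known partners, defining markers and the 3 genes most like each. The members and lists were chosen with earlier results of these data known. Figures were drawn with matplotlib 3.10.9 in Python 3.11.15.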

Additional observations from a re-analysis of the deposited data

Results flagged for a closer look

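In WT chow, replicate 1 stood apart from the other 3 libraries by Dixon's test for S100a8 (2.756 CPM, against 0.378 to 0.504 CPM) and for S100a9 (4.969 CPM, against 0.367 to 0.767 CPM). Chance marks about 1 in 20 groups in this way. The same library had the highest sum of neutrophil genes in its group.

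The effect of the diet was called different between KO and WT mice for 4 of the 8 genes tested, all lower. These calls are for the interaction term of edgeR's quasi-likelihood test, for which 14.5% of all genes were called lower. The difference, KO minus WT on the log2 scale, was -3.29 for S100a11 (adjusted p = 7.2e-06), -2.20 for S100a6 (adjusted p = 0.0164), -1.55 for S100a10 (adjusted p = 0.0179) and -2.40 for S100a8 (adjusted p = 0.0381). In these 4 genes the KO chow libraries were all above the WT chow libraries, and KO chow has 2 libraries. That order is part of what makes the term negative, and its share over all genes was not counted. The S100a11 call was kept in all 12 fits without 1 library and the S100a8 call in 2 of them. Without KO chow replicate 1, which leaves KO chow 1 library, the differences of S100a6, S100a10 and S100a8 were smaller, at -1.43, -1.10 and -1.89.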

How the results depend on the processing

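Over 672 values from fits without 1 library, 627 kept their direction and side of the threshold, 26 lost the call, 5 gained one and 14 changed sign. Over 433 values from the other settings these numbers were 392, 13, 14 and 14. Among the sign changes, 3 had been called before and 1 was called under the other setting. The causes were not tested. KO chow has 2 libraries, so a fit without either leaves it 1, which is assumed to vary like the other groups. S100a4 had 44 counts in all. DESeq2 gave no adjusted p for S100a9 in any comparison.

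In the fits without 1 library, 3 to 5 S100 genes and 4320 to 7128 of all genes were called in KO chow against WT chow, the lowest without KO chow replicate 1, and the interaction was called for 1 to 6 S100 genes. With libraries of negative clock score only, fewer S100 genes were called in KO CDAHFD against WT chow than in the main fit. The share of all genes called was not set beside these interaction and negative-score results. For KO CDAHFD against KO chow, 1 S100 gene (S100a6) was called in edgeR's quasi-likelihood test with every gene tested (adjusted p = 0.0482) or the clock score as covariate (adjusted p = 0.0491). Of all genes, 1340 and 1651 were called in these settings. For KO chow against WT CDAHFD, 2 (S100a1 and S100a16) were called with DESeq2, with the compared groups only, with the clock covariate and without KO CDAHFD replicate 2. Of all genes, 2062, 1985, 2475 and 1031 were called in these settings. With every gene tested, 1 (S100a1) was called, beside 1397 of all genes.

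With library size alone, signs changed for S100a1 (0.05) and S100a13 (0.12) in KO chow against WT chow, for S100a13 (0.03) and S100a16 (0.14) in WT CDAHFD against WT chow, for S100a13 (0.13) and S100a16 (0.54) in KO CDAHFD against WT chow, for S100a13 (0.01) and S100a16 (0.05) in KO CDAHFD against KO chow, and for S100a13 (-0.02) and S100a16 (-0.09) in the interaction. Calls also split differently: of those against WT chow, 86.0% (KO chow), 88.6% (WT CDAHFD) and 89.9% (KO CDAHFD) were higher, beside 56.4%, 51.0% and 51.4% with TMM. Between KO CDAHFD and KO chow 90.0% were higher, beside 60.7%, between KO chow and WT CDAHFD 19.1%, beside 44.2%, and in the interaction 13.7%, beside 37.3%.

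In the fits without 1 library, values near 0 changed sign within these ranges: S100a16 in KO chow against WT chow (-0.08 to 0.24) and in KO CDAHFD against WT chow (-0.21 to 0.03), S100a6 (-0.12 to 0.21), S100a10 (-0.45 to 0.04), S100a11 (-0.03 to 0.10) and S100a13 (-0.08 to 0.13) in KO CDAHFD against WT CDAHFD, S100a8 (-0.83 to 0.09), S100a9 (-0.86 to 0.53), S100a10 (-0.82 to 0.01) and S100a16 (-0.31 to 0.04) in KO CDAHFD against KO chow, and S100a9 (-0.26 to 1.12) and S100a10 (-0.22 to 0.61) in KO chow against WT CDAHFD. S100a10 in KO CDAHFD against WT CDAHFD was at 0.01 with the clock covariate and at 0.03 with libraries of negative clock score. S100a9 in KO CDAHFD against KO chow was at 0.16 with the clock covariate and at 0.01 with the replicate block.

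The number of all genes called between KO CDAHFD and WT CDAHFD was 62, and was 244 with DESeq2, 215 with every gene tested, 154 with the compared groups only, 180 with the clock covariate, 113 with libraries of negative clock score and 26 to 75 without 1 library. Between KO CDAHFD and KO chow it was 1075, and was 1885 with DESeq2, 581 with the compared groups only, 1651 with the clock covariate, 600 with libraries of negative clock score and 233 to 1437 without 1 library. Between KO chow and WT CDAHFD it was 1063, and was 2062, 1985, 2475 and 2680 with the first-named, compared-groups, clock covariate and negative-score settings and 260 to 1469 without 1 library.

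The replicate numbers did not pair the samples: deviations of 15 same-numbered pairs had r from -0.242 to 0.266, and 4 of 11 libraries matched best with a library of their own number. With the replicate block, 640 genes were called between KO CDAHFD and KO chow, and S100a8 lost the interaction call (adjusted p = 0.0543). No other S100 call changed with it.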
